A study of Homo sapiens with 2 samples.

Results

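The genes described here are 8 transcription factor genes of the early growth response: the AP-1 subunits FOS, FOSL1, FOSL2, JUN, JUNB and JUND, the small MAF protein gene MAFF, and EGR1. They were chosen by name, each has a row of its own among the 15603 genes of the table, and all 8 passed the filter of 1 FPKM in either library that left 13937 genes tested. FPKM stands for fragments per kilobase of a transcript, set relative to the depth of sequencing. The tested library came from A172R6, a clone of the human glioblastoma cell line A172 that was selected with temozolomide (TMZ), a DNA-alkylating drug, and that the labels give as resistant and kept with TMZ (cell line A172-r#6). It was set against 1 library of parental A172 cells, labelled as kept without TMZ. The clone, its selection and the presence of the drug therefore differ together and cannot be told apart, and 1 clone stands for the resistant state. With 1 library per group there is no replicate spread, so no difference below has a replicate check and the order of close levels cannot be judged against an error.

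AP-1 is a dimer that binds DNA through basic leucine zipper (bZIP) domains. JUN proteins pair with themselves or with FOS proteins, while FOS proteins need a JUN partner. FOS and FOSB carry strong activation domains that FOSL1 and FOSL2 lack, JUNB and JUND are often weaker activators than JUN, and the small MAF proteins have no activation domain and pair mainly with NRF2-type factors. FOS and EGR1 are the classic immediate early genes, switched on within minutes by serum, growth factors or stress through SRF and ETS factors at CArG boxes, and their transcripts are short-lived, whereas FOSL1 accumulates later under sustained ERK signalling and is itself an AP-1 target. AP-1 in glioblastoma is known for its link to the mesenchymal state. The labels do not give the time since the last change of medium.

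Promoters of FOS, EGR1, FOSL2 and MAFF, which passed the 2-fold threshold, are shown so that the letters next to their starts can be compared. RefSeq promoter sequences (GRCh38.p14) were matched for 7 of the 8 genes, all but FOSL1, with 2 promoters for MAFF, and the 250 bases before the gene's start are printed 5′ to 3′ on the gene's strand. Capitals mark CArG boxes, the AP-1 heptamer TGANTCA, the octamer TGACNTCA that covers the cAMP response element, and its core TGACG, all on either strand. The core overlaps the octamer where the N is G. First come the 2 genes that were lower in the resistant library.
FOS (chr14:75278578-75278827, plus strand): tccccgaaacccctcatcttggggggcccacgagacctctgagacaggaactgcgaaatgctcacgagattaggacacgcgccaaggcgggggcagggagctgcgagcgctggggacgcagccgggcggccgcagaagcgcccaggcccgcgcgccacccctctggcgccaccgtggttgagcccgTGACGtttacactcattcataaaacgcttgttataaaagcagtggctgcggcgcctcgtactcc
EGR1 (chr5:138465229-138465478, plus strand): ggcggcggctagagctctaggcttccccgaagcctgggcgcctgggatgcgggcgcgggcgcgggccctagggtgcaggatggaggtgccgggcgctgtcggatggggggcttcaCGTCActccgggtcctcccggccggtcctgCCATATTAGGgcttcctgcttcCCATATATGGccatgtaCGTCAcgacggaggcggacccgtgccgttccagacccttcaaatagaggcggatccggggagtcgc
The next are FOSL2 and the first MAFF promoter, of genes that were higher.
FOSL2 (chr2:28392608-28392857, plus strand): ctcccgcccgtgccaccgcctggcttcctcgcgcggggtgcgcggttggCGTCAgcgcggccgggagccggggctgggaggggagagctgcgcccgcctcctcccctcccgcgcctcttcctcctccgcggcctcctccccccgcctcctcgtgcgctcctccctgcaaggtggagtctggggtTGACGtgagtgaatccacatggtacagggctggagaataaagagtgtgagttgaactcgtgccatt
MAFF (chr22:38201744-38201993, plus strand): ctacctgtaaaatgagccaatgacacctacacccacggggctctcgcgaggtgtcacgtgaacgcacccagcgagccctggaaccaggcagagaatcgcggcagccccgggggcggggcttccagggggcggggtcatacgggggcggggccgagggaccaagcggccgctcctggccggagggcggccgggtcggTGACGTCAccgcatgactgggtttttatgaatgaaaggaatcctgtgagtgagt

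EGR1 held CArG boxes starting at -105 and -83 from its start, and none of the other 6 matched genes had one in the 300 bases searched, which run from 250 before to 50 after the start. Bases farther upstream were not searched, so this does not mean that FOS or another of these genes lacks a CArG box. Of all 35116 promoters in the table, 1.29% held a CArG box. The core TGACG was found in a promoter of each of the 7 genes, against 24.6% of all promoters, with the FOS copy at -64. The octamer was found in JUN, JUND and MAFF, against 7.72% of all promoters, and the heptamer in FOSL2, 5 bases after the start and therefore outside the stretch printed above, against 7.71%. Neither form of the EGR1 site that was searched was found in any of the 7, against 0.795% of all promoters for GCGTGGGCG and 5.07% for GCGGGGGCG, shares at which none in 7 says little. The sites of AP-1 type outside the promoters printed in full are shown with 10 bases on each side, the motif in capitals.
FOSL2 (chr2:28392852-28392878, plus strand): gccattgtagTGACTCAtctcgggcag
JUN (chr1:58784097-58784124, minus strand): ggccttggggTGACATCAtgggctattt
JUND (chr19:18281805-18281832, minus strand): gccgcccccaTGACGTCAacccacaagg
These matches describe the letters in this window, and no binding was measured.

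Within the FOS family the resistant clone had much more FOSL1, more FOSL2 and much less FOS, while no JUN family gene reached 2-fold. MAFF was higher and EGR1 lower. Of the 8 genes, 3 were called higher, meaning a log2 fold of at least 1 after a pseudocount of 1 FPKM, 2 were called lower and 3 were neither. Over all tested genes, 4.59% were called higher and 3.82% lower. The median log2 fold of the 8 was 0.46, beside 0.04 over all tested genes. In cultures measured in bulk, fewer cells that express a gene and less RNA per cell cannot be told apart. The genes were picked with earlier results of these data known, so the count is a description and not evidence that the family is unusual.

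**Figure D1:**
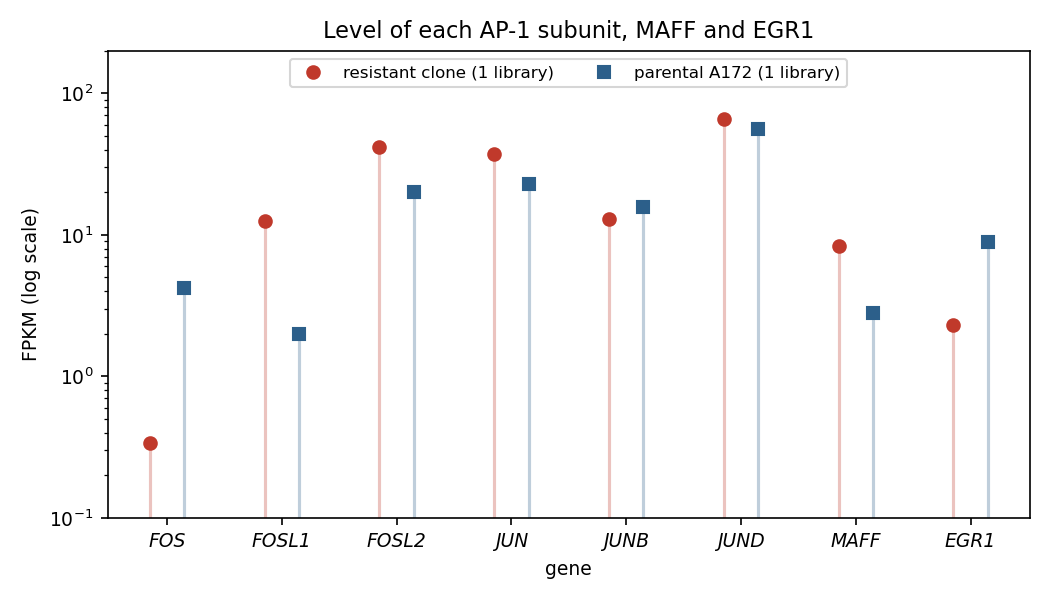
Level of each of the 8 genes in FPKM on a log axis, with a circle for the resistant library and a square for the parental library, 1 library each. FOSL1, at 12.5 against 1.98 FPKM, and FOS, at 0.336 against 4.23 FPKM, stand farthest apart in opposite directions.

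FOS (ENSG00000170345, chromosome 14, 75278774 to 75282230, plus strand, GRCh38), the founding partner of JUN, had 0.336 FPKM in the resistant library, against 4.23 FPKM in the parental library. The log2 fold was -1.97, position 60 from the lowest of the 13937 tested genes. The plain ratio was 0.0794, and the pseudocount shrinks the fold because the resistant level lies below 1 FPKM. The fourth FOS gene, FOSB, is not one of the 8 and stayed under the filter, at 0.101 FPKM in the resistant library, against 0.969 FPKM in the parental library. FOS and FOSB, the members with strong activation domains, thus had the 2 lowest levels of the FOS family in the resistant library. FOSB was the lowest of the family in the parental library too, whereas FOS stood above FOSL1 there.

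FOSL1 (ENSG00000175592, chromosome 11, 65892049 to 65900573, minus strand), which encodes FRA-1, had 12.5 FPKM in the resistant library, against 1.98 FPKM in the parental library. Its log2 fold of 2.18 was the highest of the 8 and stood at position 42 from the highest of all tested genes. FOSL2 (ENSG00000075426, chromosome 2, 28392448 to 28417312, plus strand), which encodes FRA-2, had 41.6 FPKM in the resistant library, against 19.95 FPKM in the parental library. Its log2 fold of 1.02 lay just past the threshold, and scaling the libraries to equal FPKM sums (0.91), to equal upper quartiles (0.94) or to the median fold (0.98) put it just under. Within FOSL2 lies AC104695.3, an intronic transcript of the same strand, which ran the other way at 1.32 FPKM in the resistant library, against 4.46 FPKM in the parental library.

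Because FPKM is per length, levels of different genes can be added within a library. FOS, FOSL1 and FOSL2 summed to 54.4 FPKM in the resistant library, against 26.2 FPKM in the parental library, a ratio of 2.08. FOSL2 was the main component of both sums, at 76.4% in the resistant and 76.3% in the parental library. FOSL1 made up 22.9% of the sum in the resistant library, against 7.56% in the parental library. FOS made up 0.618% in the resistant library, against 16.2% in the parental library. The quotient of the FOSL1 level over the FOS level was 37.1 in the resistant library and 0.468 in the parental library. The minor part of the FOS family was therefore mostly FOSL1 in the clone and mostly FOS in the parental cells, around a FOSL2 share that hardly differed.

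**Figure D2:**
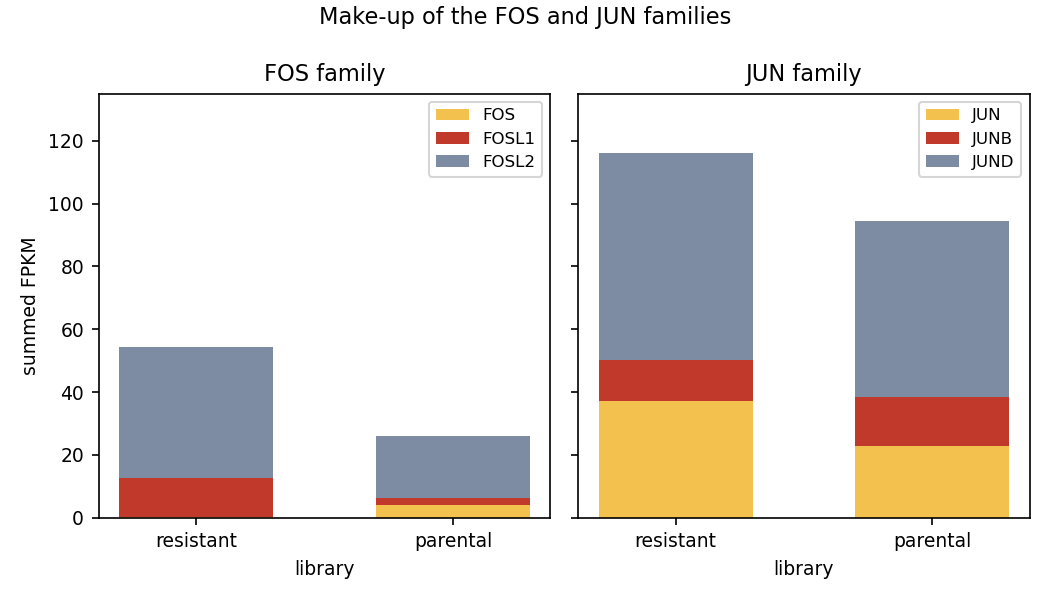
Stacked bars of FPKM for the 3 FOS family genes (left panel) and the 3 JUN family genes (right panel), with the resistant library left of the parental one in each panel. The FOS family sum was 54.4 against 26.2 FPKM and the JUN family sum 116 against 94.4 FPKM, and the FOS part of the resistant bar, 0.336 FPKM, is too thin to see.

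The JUN genes, which supply the partner that every FOS protein needs, differed less. JUN (ENSG00000177606) had 37.3 FPKM in the resistant library, against 22.7 FPKM in the parental library, and its log2 fold of 0.69 was the nearest below the threshold. JUNB (ENSG00000171223), which can restrain JUN, had 12.9 FPKM in the resistant library, against 15.8 FPKM in the parental library (log2 fold -0.27). JUNB shares exonic bases with HOOK2 on the opposite strand, which had 7.18 FPKM in the resistant and 6.93 FPKM in the parental library, and whether strand was used in counting is not given in the sources used here. JUND (ENSG00000130522), the JUN protein most associated with resting cells, had 65.8 FPKM in the resistant library, against 55.9 FPKM in the parental library (log2 fold 0.23). The 3 genes summed to 116 FPKM in the resistant library, against 94.4 FPKM in the parental library, a ratio of 1.23. JUN made up 32.1% of that sum in the resistant library, against 24.1% in the parental library, while JUNB made up 11.1% in the resistant and 16.7% in the parental library and JUND 56.7% in the resistant and 59.2% in the parental library. The JUN family sum was 2.13 times the FOS family sum in the resistant library, against 3.61 times in the parental library. These are sums of transcript levels, and the amounts of the proteins and of their dimers were not measured.

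MAFF (ENSG00000185022, chromosome 22, 38200767 to 38216511, plus strand) had 8.35 FPKM in the resistant library, against 2.78 FPKM in the parental library. The log2 fold was 1.31, position 278 from the highest. PLA2G6, which overlaps it on the opposite strand without sharing exons, was not called, at 4.49 FPKM in the resistant library, against 6.84 FPKM in the parental library. EGR1 (ENSG00000120738, chromosome 5, 138465490 to 138469315, plus strand), a zinc finger factor, had 2.31 FPKM in the resistant library, against 8.85 FPKM in the parental library. The log2 fold was -1.57, position 115 from the lowest.

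In order of level, JUND was the highest of the 8 in both libraries. In the resistant library FOSL2 (41.6 FPKM) and JUN (37.3) followed, then JUNB (12.9), FOSL1 (12.5), MAFF (8.35), EGR1 (2.31) and FOS. In the parental library JUN (22.7 FPKM), FOSL2 (19.95) and JUNB (15.8) followed, then EGR1 (8.85), FOS (4.23), MAFF (2.78) and FOSL1. FOSL1 was thus the lowest of the 8 in the parental cells, and FOS took that place in the clone. Among all tested genes, FOSL1 stood at the 60.1 percentile of level in the resistant library, against 16.7 in the parental library, and FOS at 1.60 against 31.8.

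**Figure D3:**
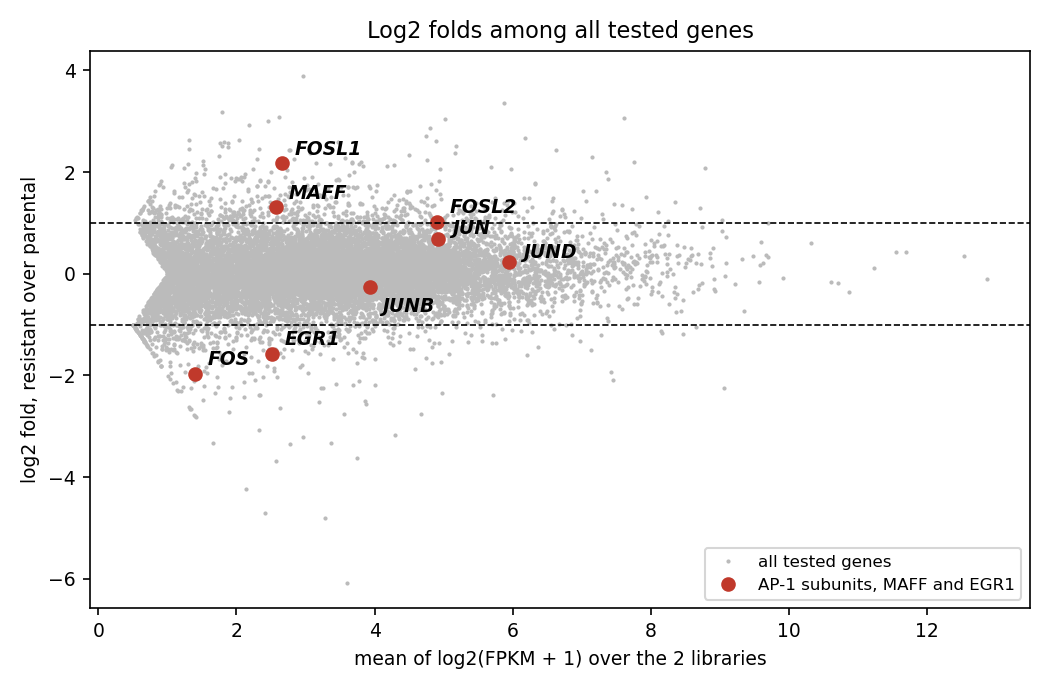
Log2 fold of resistant over parental against the mean of log2(FPKM + 1) over the 2 libraries, with each tested gene as a grey dot, the 8 genes as red circles and dashed lines at 2-fold. FOSL1 (2.18) and FOS (-1.97) lie at the edges of the cloud, while JUNB (-0.27) and JUND (0.23) lie within its body.

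In the authors' deposited table, whose test is not stated, 5 of the 8 genes had a q-value under 0.05, where 9.11% of all listed genes did. The q-values in the authors' deposited table were 5.29e-08 for FOS, 7.49e-08 for FOSL1, 0.000131 for MAFF, 0.000538 for FOSL2 and 0.00739 for EGR1. In the authors' deposited table they were 0.307 for JUN, 0.748 for JUND and 0.796 for JUNB. Such a test compares these 2 libraries and not the conditions.

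The chromosome stretches around the 8 genes had medians closer to 0 than the called genes themselves. The 20 tested genes nearest each of the 8, 10 on each side, had median log2 folds between -0.30 around FOS and 0.28 around MAFF. FOSL1, at 2.18, lay above the highest of its 20 neighbours (0.96). FOS, at -1.97, lay below the lowest of its own (-1.34), of which 3 were called lower and none higher. EGR1, at -1.57, also lay below its lowest neighbour (-0.94). MAFF (1.31) and FOSL2 (1.02) lay within the range of their neighbours, whose highest folds were 1.36 and 1.10.

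The pentamer ATTTA, part of the AU-rich elements known to shorten the life of early response transcripts, was counted in the 3′ UTR of 1 GENCODE 29 transcript per gene. FOS had 5 copies in 806 bases, or 6.203 per kilobase, a density that 4.88% of 11361 tested coding genes reached. By number of copies, 33.3% of these genes had as many as FOS, and FOSL2 had the most of the 8, at 9 copies. JUNB followed with 4 per kilobase, and MAFF (2.45), JUN (2.33), FOSL2 (1.85), FOSL1 (1.502) and JUND (1.47) lay nearer the median of all genes, 1.77. EGR1, with 1 copy in 1234 bases, had 0.810 per kilobase. By density, the genes called lower, FOS and EGR1, were therefore the highest and the lowest of the 8. By number, FOSL1 and JUND also had 1 copy, like EGR1.

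By Euclidean distance in log2(FPKM + 1) over the 2 libraries, the genes nearest FOSL1 were HES4 (12.2 FPKM in the resistant and 1.87 in the parental library, distance 0.0648), NAV2 (0.132) and NXN (0.198). Nearest FOS were PLEKHA7 (0.291 FPKM in the resistant and 4.03 in the parental library, distance 0.0756), PVALB (0.0992) and CTD-2116N17.1 (0.117). With 2 points per gene this says only that the levels are alike.

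Upstream of these genes, the RAS and MAP kinase cascade carries the signal that activates them. Of 28 tested MAP kinases and kinases upstream, none was called higher and 1 lower, with a median log2 fold of 0.17. That is 3.57% lower, close to the 3.82% of all tested genes. The exception was MAP3K8, the kinase TPL2, which can activate ERK and had 2.25 FPKM in the resistant library, against 31.7 FPKM in the parental library (-3.33). The next in size of fold were MAPK12 (20.1 FPKM in the resistant and 9.85 in the parental library), RPS6KA4 (15.4 resistant and 9.09 parental) and MAPK10 (0.758 resistant and 1.85 parental), none of them called. The list had 1 higher and 2 lower with a pseudocount of 0.1 FPKM, and 5 higher and 3 lower at 1.5-fold. The counts over all tested genes also rose at these settings. Of 7 tested genes for SRF and its cofactors, 1 was higher (14.3%, beside 4.59% of all tested genes) and none lower (beside 3.82%). Counts this small in 7 genes say little. The gene called higher was FHL2, the only one of the 7 that is neither SRF nor an ETS or MRTF factor. It encodes a LIM-domain cofactor that also binds FOS and JUN proteins. FHL2 had 29.1 FPKM in the resistant library, against 1.03 FPKM in the parental library (3.89, the highest fold of all tested genes). None of the other 6, which are SRF and the ETS and MRTF factors, was called. SRF itself had 7.31 FPKM in the resistant library, against 5.22 FPKM in the parental library, and the cofactors ELK4 (21.3 FPKM resistant and 15.4 parental) and MKL2 (17.5 resistant and 24.7 parental) were not called either.

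Feedback inhibitors of the cascade had called genes in both directions. Of 17 tested MAP kinase phosphatases, Sproutys and SPREDs, 3 were higher (17.6%, beside 4.59% of all tested genes) and 1 lower (5.88%, beside 3.82%), with a median log2 fold of 0.28. This list, too, was chosen with earlier results of these data known. DUSP5, a phosphatase of nuclear ERK, had 15.8 FPKM in the resistant library, against 3.92 FPKM in the parental library (1.77). DUSP1, a phosphatase that is itself an immediate early gene, had 38.9 FPKM in the resistant library, against 11.9 FPKM in the parental library (1.63), and SPRED1 stood at the threshold (9.27 FPKM resistant and 4.13 parental). SPRY2 was lower, at 3.14 FPKM in the resistant library, against 15.2 FPKM in the parental library (-1.96).

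Several other immediate early genes were higher in the resistant clone. Of 27 tested, 6 were called higher (22.2%, beside 4.59% of all tested genes), with a median log2 fold of 0.60, and none was called lower, which is near the 3.82% of all tested genes. The list was chosen with earlier results of these data known. MYC had 26.2 FPKM in the resistant library, against 4.99 FPKM in the parental library (2.18). ZFP36L2, which binds AU-rich transcripts, had 8.43 FPKM in the resistant library, against 2.27 FPKM in the parental library (1.53). KLF2 (19.0 FPKM resistant and 6.60 parental, 1.39) and the matricellular gene CYR61 (112 FPKM resistant and 47.4 parental, 1.22) came next. Of the list, 21 genes had a fold above 0 and 6 did not, the lowest being CSRNP1, chosen after its values were seen, at 4.32 FPKM in the resistant library, against 7.55 FPKM in the parental library (-0.68).

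Among other bZIP genes that can join AP-1 dimers, 1 of 9 tested was higher and none lower, with a median log2 fold of 0.35. Of all tested genes, 4.59% were higher and 3.82% lower, so counts this small in a list this short say little. ATF3, a stress-induced partner of JUN proteins, had 37.7 FPKM in the resistant library, against 11.6 FPKM in the parental library (1.62). CREB1 (16.4 FPKM resistant and 9.38 parental), JDP2 (6.38 resistant and 3.41 parental) and CREB5 (8.07 resistant and 5.41 parental) were not called. None of the 7 tested MAF and CNC genes described here, which hold the partners of MAFF, was called, and the median of the list was 0.56. A count of none in 7 is near the shares of all tested genes. All 7 had a log2 fold above 0, the lowest at 0.43, where 7431 of the 13937 tested genes had one above 0. Of the other small MAF genes, MAFG had 34.9 FPKM in the resistant library, against 19.0 FPKM in the parental library, and MAFK, named after its values were seen, had 27.7 FPKM in the resistant library, against 19.0 FPKM in the parental library. NFE2L2, which encodes NRF2, had 121 FPKM resistant and 70.2 parental. The large MAF gene MAFA had low levels, at 1.85 FPKM in the resistant and 0.529 FPKM in the parental library, and NFE2L1, an NRF2 relative, had 198 FPKM in the resistant and 134 FPKM in the parental library. Neither of the EGR1 corepressor genes was called, with NAB2 at 6.86 FPKM in the resistant and 5.35 in the parental library and NAB1 at 14.7 resistant and 16.2 parental. The related zinc finger gene WT1 had 1.39 FPKM in the resistant library, against 0.824 FPKM in the parental library.

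None of 12 genes for the turnover or inhibition of AP-1 subunits was called, and the list's median log2 fold was 0.00. With 4.59% of all tested genes higher and 3.82% lower, a count of none in a list this short is near the background. The largest folds were those of PDCD4, an inhibitor of AP-1 activity, at 13.2 FPKM in the resistant library, against 20.4 FPKM in the parental library (-0.59), and TRIB1, at 6.26 FPKM resistant and 4.14 parental (0.50). CUL4A (28.0 FPKM resistant and 35.5 parental) and TRIB2 (5.46 resistant and 4.27 parental) followed.

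**Figure D4:**
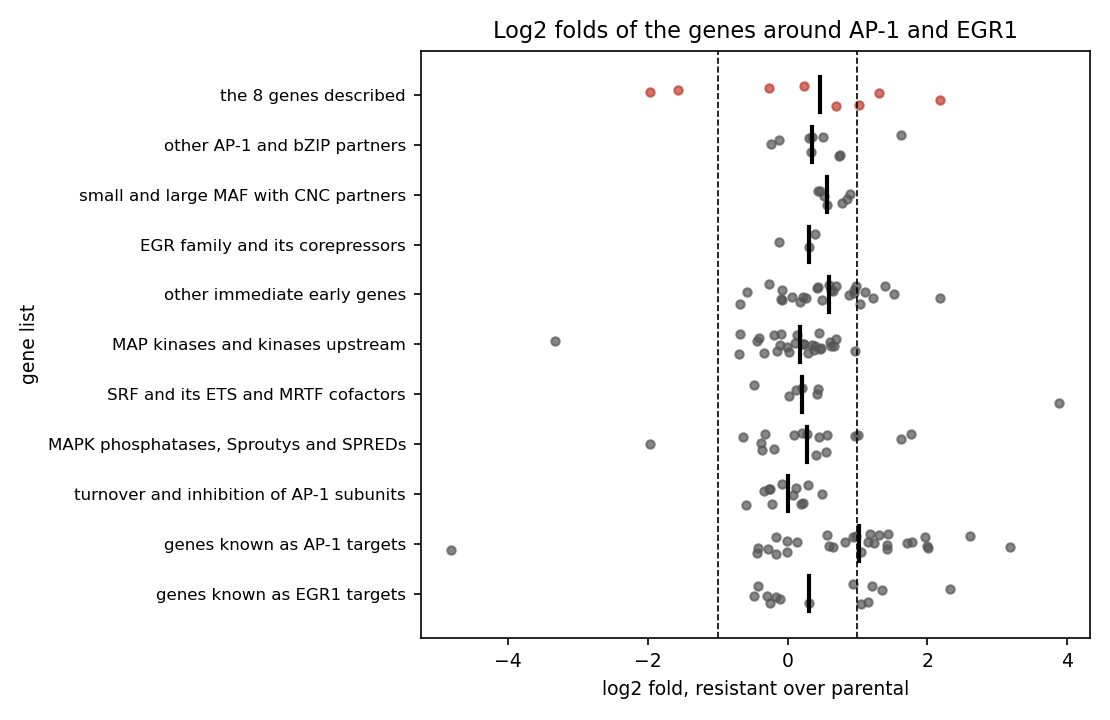
Log2 fold of resistant over parental for the 8 genes (top row, red) and for each tested gene of 10 related lists (grey), with a black bar at each list's median and dashed lines at 2-fold. The list of known AP-1 targets has the highest median, 1.02, and the list of turnover factors the lowest, 0.00.

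Genes known as AP-1 targets were often higher in the resistant clone. Of 30 tested, 15 were called higher (50%, beside 4.59% of all tested genes), 1 lower and 14 neither, with a median log2 fold of 1.02. The list was written with earlier results of these data known and is not independent evidence of its direction. Without the 6 genes that an earlier account had named (MMP3, CCL2, VEGFA, CDKN1A, HMOX1 and IL11), 10 of 24 were higher and none lower, with a median of 0.88. Many of these genes have other regulators, and AP-1 binding was not measured.

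By the largest folds, the matrix protease MMP3, whose promoter is a textbook AP-1 target, had 9.39 FPKM in the resistant library, against 0.146 FPKM in the parental library (3.18). The uridine phosphorylase UPP1 had 72.2 FPKM in the resistant library, against 11.0 FPKM in the parental library (2.61). The sphingosine kinase gene SPHK1 had 10.4 FPKM in the resistant library, against 1.83 FPKM in the parental library (2.01). The exception was the chemokine CCL2, at 0.840 FPKM in the resistant library, against 50.8 FPKM in the parental library (-4.81).

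Other genes of the list, named after their values were seen, fell into several functions. Among proteases and matrix, MMP13 (3.53 FPKM in the resistant and 0.695 in the parental library) and the urokinase PLAU (9.74 resistant and 3.72 parental) were higher, MMP1 (3.24 resistant and 1.14 parental) stayed just under the threshold, and MMP2 (66.4 resistant and 90.0 parental) and TIMP1 (43.4 resistant and 52.6 parental) were not called. The cyclin gene CCND1 (146 FPKM resistant and 61.7 parental), the ezrin gene EZR (147 resistant and 42.2 parental), the chromatin protein gene HMGA1 (21.0 resistant and 5.76 parental) and osteopontin, SPP1 (7.58 resistant and 1.21 parental), were also higher. The urokinase receptor PLAUR (22.1 FPKM resistant and 20.1 parental), LAMB3 (2.07 resistant and 2.09 parental) and NQO1 (39.1 resistant and 43.9 parental) were not called.

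**Figure D5:**
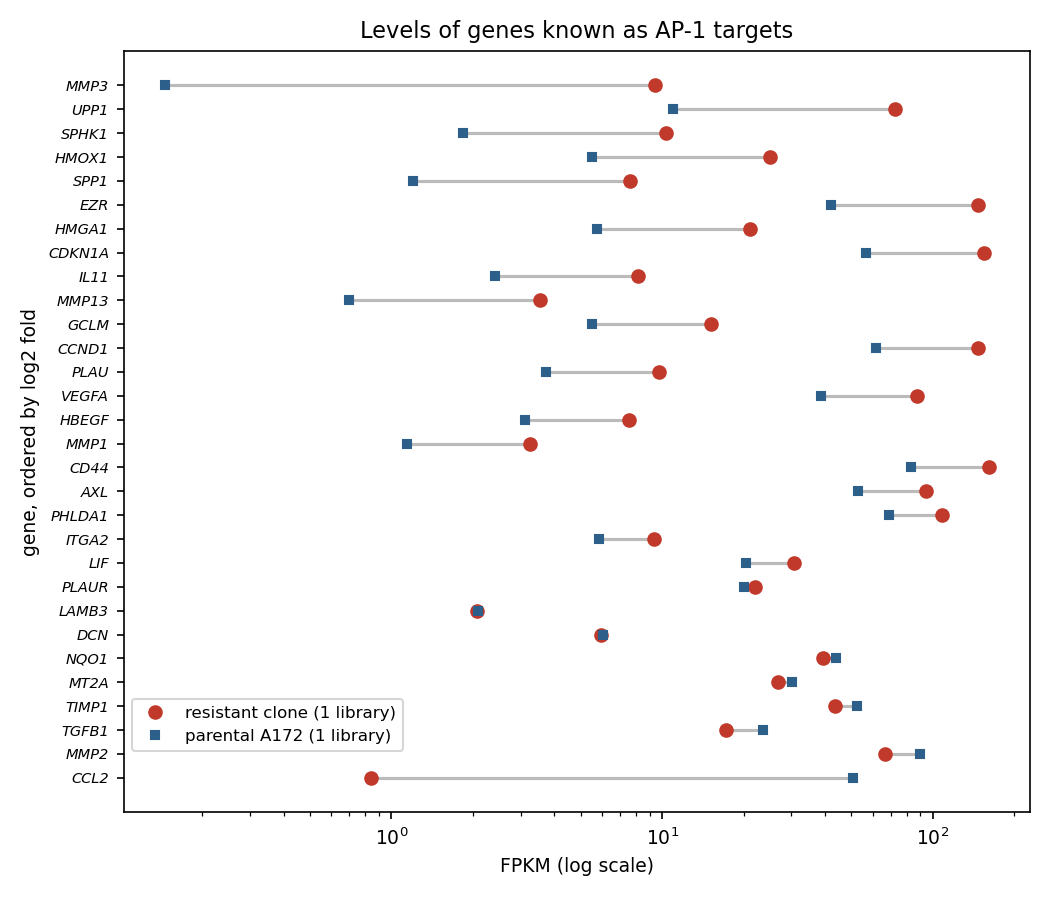
FPKM on a log axis of the 30 tested genes known as AP-1 targets, ordered by log2 fold from the highest at the top, with a circle for the resistant and a square for the parental library, joined by a line. In 22 of the 30 the circle lies to the right of the square, and CCL2, at 0.840 against 50.8 FPKM, is the gene farthest the other way.

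Of 13 tested genes known as EGR1 targets, 5 were called higher (38.5%, beside 4.59% of all tested genes) and 8 neither, with a median log2 fold of 0.31. This list too was written with earlier results of these data known and is not independent evidence of its direction. The count of higher genes was 2 with a pseudocount of 5 FPKM, 4 at equal FPKM sums and 4 at equal upper quartiles. None was called lower, which is near the 3.82% of all tested genes that were. The coagulation factor gene F3 had 49.8 FPKM in the resistant library, against 9.12 FPKM in the parental library (2.33), PDGFA had 14.99 FPKM resistant and 5.29 parental (1.35), ID3 had 21.5 FPKM resistant and 8.73 parental (1.21) and VEGFA had 87.3 FPKM resistant and 38.6 parental (1.16). VEGFA, CD44 and TGFB1 also stand in the list of AP-1 targets, and VEGFA is among the genes that an earlier account had named.

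Across the whole table, FPKM summed to 323932 in the resistant library and 299594 in the parental library, and depth is unknown because only FPKM were given. Of all tested genes, 640 were called higher and 532 lower, a split that became 506 higher and 664 lower once both libraries were scaled to equal FPKM sums, which moved the median log2 fold of all tested genes from 0.04 to -0.06. Of 14 glial and glioma markers, 9 had a row, and their levels summed to 1047 FPKM in the resistant library and 802 FPKM in the parental library, mostly from VIM (804 resistant and 632 parental), CD44 (161 resistant and 83.1 parental) and EGFR (63.2 resistant and 36.8 parental). NES had 5.08 FPKM in the resistant library, against 33.7 FPKM in the parental library, SOX2 had 0.253 resistant and 2.23 parental, and GFAP, S100B, AQP4, SLC1A2 and SLC1A3 were not analysed here. Immune markers summed to 0.919 FPKM in the resistant library and 2.52 FPKM in the parental library over 2 genes, and endothelial and pericyte markers to 34.9 FPKM resistant and 79.7 parental over 4. The latter sums were mostly PDGFRB (31.6 resistant and 53.5 parental) and RGS5. RGS5 had separate rows that differed, at 1.60 resistant and 1.87 parental and at 1.55 resistant and 22.8 parental. Epithelial markers summed to 1609 FPKM in the resistant library and 605 FPKM in the parental library over 3, from KRT8 and KRT18, while EPCAM had 0.669 FPKM resistant and 0.797 parental. Neuronal markers summed to 48.0 FPKM in the resistant library and 76.3 FPKM in the parental library over 3. That difference came mostly from NEFL (31.5 resistant and 61.9 parental), while SYT1 ran the other way (16.1 resistant and 13.3 parental). The part of these marker differences in the results above was not tested.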

How the data were processed

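RNA of 2 libraries, 1 of the resistant A172 clone and 1 of the parental line, was prepared with a stranded mRNA kit, per the labels' protocols. The table deposited by the authors holds gene-level FPKM of both libraries, per the file headers. Its p-values and q-values come from a comparison by the authors whose test no source names, per the file headers. How reads were aligned, counted and scaled, and against which genome build, is likewise not given in the sources used. No gene is listed with less than 0.544 FPKM in its higher library, so fainter genes may have been left out upstream. Exactly 0 was listed for 182 genes in the resistant and 111 in the parental library, none of which is named here.

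Folds are log2 ratios, resistant to parental, after adding 1 FPKM to each level, which understates the change of low genes. Genes with 1 FPKM or more in either library were tested, and called at 2-fold. No p-value was computed. The members, lists and alternatives were chosen with earlier results of these data known. All 8 genes are named, with up to 4 genes of each list by the size of their fold and cell type markers, and others are said to be chosen after their values were seen. Coordinates and overlaps came from GENCODE 29 (GRCh38), whose gene lay within the locus given in the table for each of the 8, and promoters from RefSeq (GRCh38.p14). The UTR of at least 100 bases from the longest principal transcript was used. The calling rule was tested on simulated data of 15603 genes, where it called all 200 genes changed 4-fold from 25 FPKM or more under log2 noise of SD 0.3. Each called gene of the 8 had less than 25 FPKM in the parental library. Changes from such levels, and changes smaller than 4-fold, were not simulated, so the simulation says nothing about calls there. Computation used Python 3.11.15, numpy 2.4.6 and pandas 2.3.3. Alternatives were the pseudocount, the filter, the threshold and 3 scalings. Of 186 entries in the lists, 159 had a row and 153 were tested, and list counts are over those tested, with the AP-1 targets at 30 of 39 entries and the EGR1 targets at 13 of 19. Some genes are not reported here and enter no list.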

Additional observations from a re-analysis of the deposited data

How the results depend on the processing

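No paired analysis was possible because each group had 1 library, and no library could be left out. In 33 of 40 combinations of a gene and a pseudocount or scaling, the 8 genes kept their side of the 2-fold threshold, and none changed sign. The combinations include JUN, JUNB and JUND, which stayed under the threshold in each. FOSL2 stayed past it only with a pseudocount of 0.1 FPKM (1.06). With a pseudocount of 5 FPKM, 1 of the 8 genes was higher (FOSL1) and 0 lower, since FOS (-0.79), EGR1 (-0.92), MAFF (0.78) and FOSL2 (0.90) came under the threshold; a large pseudocount shrinks the folds of low genes by construction. At 4-fold 1 was higher and 0 lower, and with a filter of 5 FPKM 1 was lower, as FOS was then not tested. Over all tested genes, 1076 were higher and 1029 lower with a pseudocount of 0.1 FPKM, 220 and 114 with 5 FPKM, 2020 and 1674 at 1.5-fold, and 61 and 59 at 4-fold, and 282 were lower with the 5 FPKM filter. Of the other immediate early genes, 10 were higher with a pseudocount of 0.1 FPKM, and 14 higher and 1 lower at 1.5-fold. The count higher in that list fell to 4 with a pseudocount of 5 FPKM, 4 at equal FPKM sums and 5 at equal upper quartiles. At these scalings, 506 and 529 of all tested genes were higher. Of the AP-1 targets, 0 were lower once the genes named by an earlier account were left out, an alternative added after the data were seen. The count of AP-1 targets called higher, 15 above, was 10 with a pseudocount of 5 FPKM and 16 with 0.1 FPKM. It was 14 at equal FPKM sums, 14 at equal upper quartiles and 20 at 1.5-fold. Adding FOSB to the FOS family, also added later, put FOSL1 at 22.9% in the resistant and 7.29% in the parental library and FOS at 0.617% in the resistant and 15.6% in the parental library. Depth is unknown, so counting error at low levels such as that of FOS in the resistant library cannot be given.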
